A study of Mus musculus with 8 samples.

Results

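Clu, Anxa1, Anxa3, Anxa8, Spp1, Il33, Msln, Il1rn and Tnfrsf12a were followed as 9 genes of the fetal and regenerating intestinal epithelium. They were chosen by name, as were the further lists below, with earlier results of these data known. Their counts beside shares of all genes are thus a description. All 9 were found among the 23951 gene symbols of the expression table and passed the filter that left 12084 genes for testing. The adult crypt is kept by Lgr5-positive stem cells. After injury in the mouse, surviving epithelial cells can switch for a time to a programme that resembles the fetal gut, in which the secreted chaperone gene Clu, several annexin genes and surface proteins such as Ly6a are switched on and the stem cell genes are turned down. The 9 genes encode a secreted chaperone, calcium-dependent membrane-binding annexins, a cytokine of the IL-1 family and the IL-1 receptor antagonist. They also encode a receptor of the TNF receptor family, a matrix ligand and a surface glycoprotein. Several of the 9 are also made by cells other than epithelium.

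Messenger RNA of jejunal crypts was sequenced in 8 libraries. The 2 libraries labelled CDX2KO_BRAF came from mice with Cdx2 f/f, BRAF-V600E f/+ and Villin-CreER(T2), the 3 SMAD4KO_BRAF libraries from mice with Smad4 f/f, BRAF-V600E f/+ and Villin-CreER(T2), and the 3 BRAF libraries from mice with BRAF-V600E f/+ and Villin-CreER(T2) and no further deletion. All 8 thus carry the activating Braf allele, and the Villin promoter restricts the tamoxifen-activated recombinase to intestinal epithelium. Tamoxifen was injected on 4 days in a row and crypts were taken 1 day later, with 3 mM EDTA and a 70 micron filter. The labels used here give no age and no strain, and do not say whether libraries came from separate animals, so the p-values given here reflect how much libraries differ, which may be technical. By Y-linked genes and Xist, BRAF and SMAD4KO_BRAF each held male and female libraries, so each of these groups came from more than 1 animal. Libraries are numbered as in the table's columns.

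Levels are in FPKM, a unit the authors deposited that is scaled for transcript length and library size, so levels of different genes can be set side by side. Changes are differences of log2(FPKM + 1), first group minus second, ± standard error, with the limma p adjusted over all 12084 genes and a threshold of 0.05. This scale understates changes at low FPKM. No reads were used here, so absolute depth is unknown. Steps between low values put relative depth between 0.708 and 1.46, with BRAF library 0 set to 1. Smad4 had 7.66 to 10.7 FPKM in SMAD4KO_BRAF and 42.4 to 47.0 FPKM in BRAF. Cdx2 had 155 and 121 FPKM in the libraries labelled CDX2KO_BRAF, 75.1 to 93.1 FPKM in SMAD4KO_BRAF and 64.2 to 82.6 FPKM in BRAF, so it goes against that label. Reading any direction given below for these 2 libraries as that of a Cdx2 deletion rests on the label alone. The table has 1 value for the gene, so a deleted stretch cannot be seen apart from what remains. Epithelial markers such as Epcam and Vil1 summed to 6591 and 7987 FPKM in the libraries labelled CDX2KO_BRAF, 4738 to 6844 FPKM in SMAD4KO_BRAF and 5385 to 8268 FPKM in BRAF. In bulk crypts, fewer cells of a type and less RNA per cell cannot be told apart.

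The promoters of Anxa1 and Anxa8 are shown because these 2 annexin genes took different courses, as described next, and were thus picked with their values known. Each window runs from 250 bases before to 50 bases after the start of the gene, from RefSeq on GRCm38.p6, a later build than the mm9 of the expression table. RefSeq windows were at hand for 6 of the 9 genes. Capitals mark matches, on either strand, to the AP-1 motif TGANTCA, the TEAD motif GGAATG, the CDX motif TTTATNG or the TATA box TATAAA. Anxa1 lies at chr19:20390622-20390921 on the minus strand and Anxa8 at chr14:34085729-34086028 on the plus strand.
Anxa1: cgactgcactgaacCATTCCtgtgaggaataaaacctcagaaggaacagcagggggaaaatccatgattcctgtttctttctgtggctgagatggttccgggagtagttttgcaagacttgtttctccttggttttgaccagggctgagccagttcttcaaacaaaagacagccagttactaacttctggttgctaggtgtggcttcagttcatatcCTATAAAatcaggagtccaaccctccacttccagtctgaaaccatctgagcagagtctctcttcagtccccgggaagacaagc
Anxa8: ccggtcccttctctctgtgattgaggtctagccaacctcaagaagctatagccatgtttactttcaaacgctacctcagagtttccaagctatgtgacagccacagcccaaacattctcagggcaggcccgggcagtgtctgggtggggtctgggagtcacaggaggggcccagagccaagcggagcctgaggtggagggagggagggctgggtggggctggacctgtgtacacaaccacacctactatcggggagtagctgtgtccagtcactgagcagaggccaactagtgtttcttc
The Anxa1 window held a TEAD match 236 bases before the start and a TATA box 32 bases before it, which a CDX match overlaps. The Anxa8 window held no match to these letters. None of the other 4 genes with windows passed the test in any comparison. Spp1 window 1 held overlapping CDX and TATA matches, with the TATA letters 211 bases before the start, and Spp1 window 2 held no match. Il33 held TEAD and TATA matches, with TATA letters 203 bases before the start in one window and 29 in another. Il1rn window 3 held TEAD and TATA matches, with the TATA letters 14 bases after the start. Il1rn window 1 held an AP-1 match and Il1rn window 2 held no match. Tnfrsf12a held no match. Of all 32851 promoter windows, 7.81% hold the AP-1 letters, 14.7% the TEAD letters, 10.9% the CDX letters and 13.6% the TATA letters. These shares are per window, and Spp1, Il33 and Il1rn each had several windows. A match is a description of the letters and not a site.

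Clu and Anxa1 were the 2 of the 9 genes that rose in the libraries labelled CDX2KO_BRAF against BRAF, and none of the 9 fell. Among all genes tested, 6.89% rose and 7.21% fell in this comparison, 14.1% in all. At an unadjusted p under 0.05 there were 3 of the 9 and 28.8% of all genes. The median change of the 9 genes was 0.67, beside 0.02 for all genes, with 6 of 9 positive. Both libraries lay above all 3 BRAF libraries for 3 of the 9 genes, Clu, Anxa1 and Anxa3, and 25.7% of all genes did so. Both lay below for 0 of the 9 and for 22.7% of all genes, which makes 48.4% without overlap.

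Clu encodes clusterin, a secreted chaperone that in the mouse marks the cells that rebuild the crypt after damage. Its level was 255 and 744 FPKM in the libraries labelled CDX2KO_BRAF, 3.10, 14.2 and 2.38 FPKM in SMAD4KO_BRAF libraries 0 to 2, and 11.4, 6.37 and 4.60 FPKM in BRAF libraries 0 to 2. The lower of the 2 labelled libraries lay far above the highest of the other 6, and the 2 differed from each other by 2.91-fold. The change against BRAF was 5.77 ± 0.73 (limma, adjusted p = 0.00368), which is 54.7-fold on the scale of FPKM + 1. Over 20 other settings it stayed between 5.004 and 6.54, with an adjusted p of at most 0.0414, so that the call held in each. By mean FPKM Clu was first among the 9 genes in the libraries labelled CDX2KO_BRAF, sixth in SMAD4KO_BRAF and seventh in BRAF.

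Anxa1 encodes annexin A1, a phospholipid-binding protein that also signals through formyl peptide receptors. It had 123 and 156 FPKM in the libraries labelled CDX2KO_BRAF, 12.9, 41.0 and 4.54 FPKM in SMAD4KO_BRAF libraries 0 to 2, and 27.6, 7.43 and 6.68 FPKM in BRAF libraries 0 to 2. The 2 labelled libraries were close to each other and above the other 6, which spread over a 9.04-fold range. The change against BRAF was 3.51 ± 0.87 (limma, adjusted p = 0.0390). Over 20 other settings the change stayed between 2.99 and 4.12 and the adjusted p ran from 0.0177 to 0.186, and the call ended in 8. These were no filter (0.0746), a robust fit (0.0598), a replicate block (0.0712), and leaving out BRAF library 1 (0.0934), BRAF library 2 (0.106), SMAD4KO_BRAF library 0 (0.0573) or either of the labelled libraries (0.153 without library 0, 0.186 without library 1).

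Anxa3, a further annexin gene, had 178 and 234 FPKM in the libraries labelled CDX2KO_BRAF, 42.8, 40.0 and 6.61 FPKM in SMAD4KO_BRAF libraries 0 to 2, and 76.2, 13.2 and 28.4 FPKM in BRAF libraries 0 to 2. Both labelled libraries were again above the other 6. Its change against BRAF was 2.69 ± 0.91, with a 95% interval of 0.54 to 4.83, and missed the threshold (limma, adjusted p = 0.0996). It passed with sex as a term (0.0349) and without SMAD4KO_BRAF library 2 (0.0450), in a range of 0.0349 to 0.303. Anxa8 was the lowest of the annexin genes among the 9, at 1.24 and 8.85 FPKM in the libraries labelled CDX2KO_BRAF, 1.27, 2.07 and 0.613 FPKM in SMAD4KO_BRAF libraries 0 to 2, and 3.68, 3.06 and 1.23 FPKM in BRAF libraries 0 to 2. The groups overlapped, because 1 labelled library was the highest of all 8 and the other among the low ones. Its change against BRAF was 0.43, with an interval of -1.06 to 1.92 (limma, adjusted p = 0.685).

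**Figure D1:**
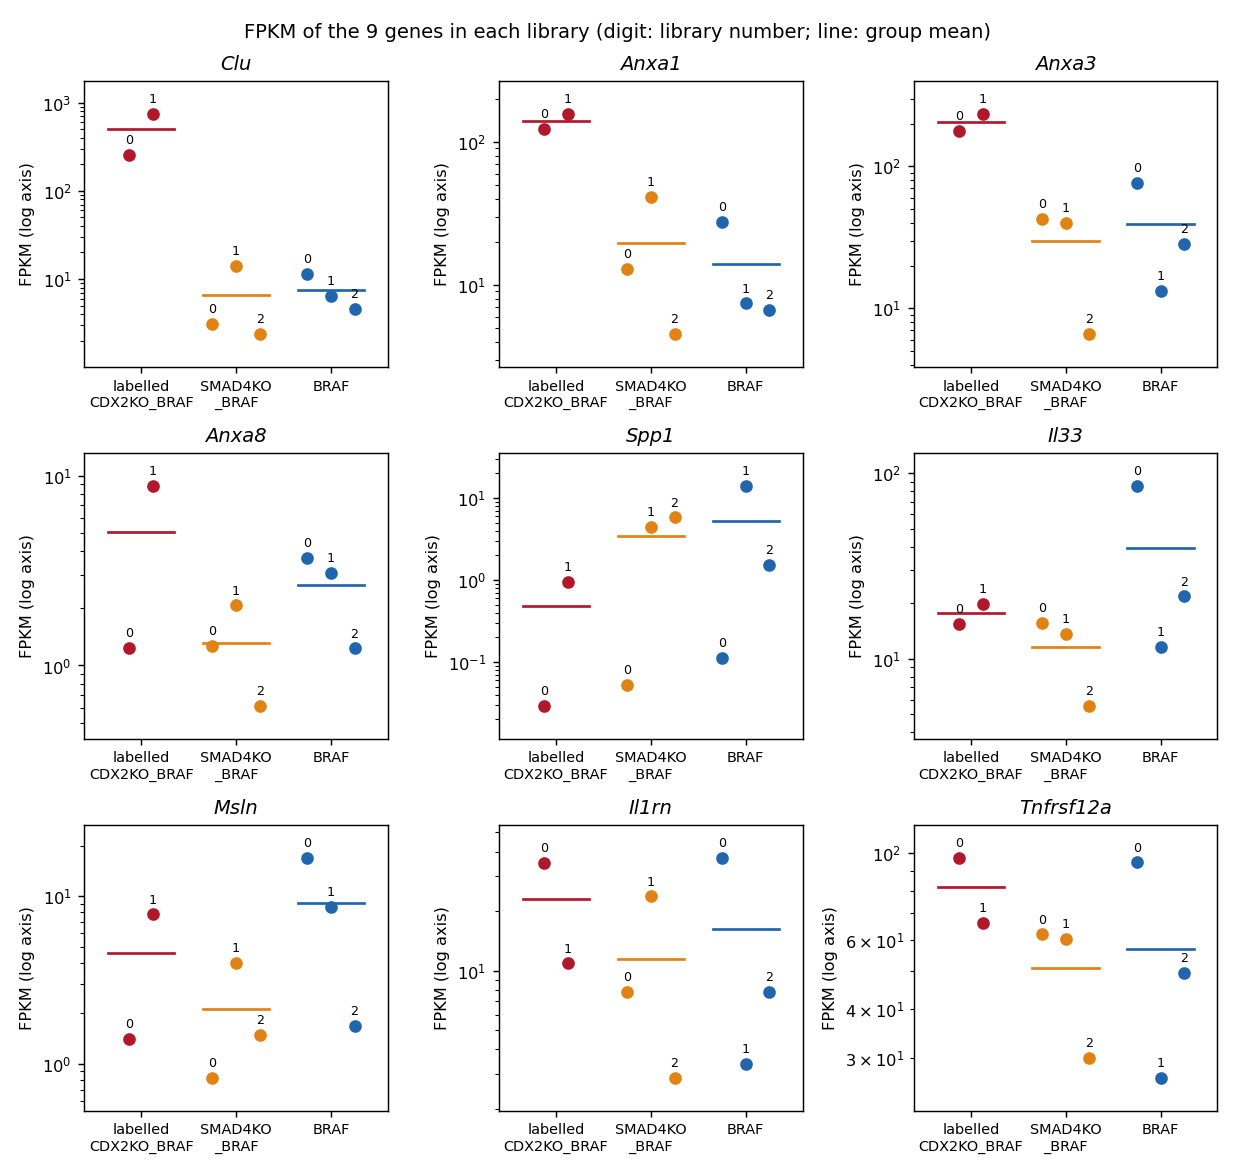
FPKM of the 9 genes (vertical log axis) by group, with 1 point per library, the library number above it and a line at the group mean. Clu, Anxa1 and Anxa3 lie higher in both libraries labelled CDX2KO_BRAF than in the other 6, and for the remaining 6 genes the labelled libraries overlap the BRAF libraries.

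Other cell types moved in the same libraries as Clu, Anxa1 and Anxa3. Of 6 tuft cell markers, none was at 0 in both libraries labelled CDX2KO_BRAF, and their sum was 34.2 and 79.5 FPKM there, 2.34 to 7.51 FPKM in SMAD4KO_BRAF and 3.56 to 6.04 FPKM in BRAF, where Il25 was at 0 throughout. The 8 gastric mucous and pit cell markers summed to 2566 and 8451 FPKM in the libraries labelled CDX2KO_BRAF, 0.489 to 31.0 FPKM in SMAD4KO_BRAF and 0.810 to 154 FPKM in BRAF. Tff1 was at 0 in all 3 groups and Muc5ac was also at 0 in BRAF. The 8 enterocyte markers summed to 8315 and 3508 FPKM in the libraries labelled CDX2KO_BRAF, 6522 to 19816 FPKM in SMAD4KO_BRAF and 12882 to 27916 FPKM in BRAF, with none at 0. Apoa1 and Apoa4 overlapped BRAF, and the other markers of this list were lower in both labelled libraries than in every BRAF library. Among those were Sis (3.71 and 2.85 FPKM, against 368 to 755 FPKM in BRAF) and Lct (0.494 and 0.0721 FPKM, against 35.6 to 76.4 FPKM in BRAF). The 6 markers of crypt base stem cells summed to 463 and 241 FPKM in the libraries labelled CDX2KO_BRAF, 289 to 547 FPKM in SMAD4KO_BRAF and 196 to 475 FPKM in BRAF, and most of that sum was Olfm4. Its members differed in direction. Smoc2 (22.3 and 13.3 FPKM, against 28.4 to 40.2 FPKM in BRAF) and Axin2 (7.22 and 3.18 FPKM, against 9.54 to 16.5 FPKM in BRAF) were lower in both libraries labelled CDX2KO_BRAF than in every BRAF library. Lgr5 (3.03 and 2.44 FPKM, against 1.26 to 2.35 FPKM in BRAF) and Ascl2 (2.84 and 2.55 FPKM, against 1.60 to 2.06 FPKM in BRAF) were higher, and Olfm4 and Rgmb overlapped BRAF. The 6 Paneth cell markers summed to 6751 and 5176 FPKM in the libraries labelled CDX2KO_BRAF, 15409 to 23975 FPKM in SMAD4KO_BRAF and 8775 to 17715 FPKM in BRAF. Most of that sum was Defa24. Lyz1, Defa3, Defa24, Itln1 and Ang4 were each lower in both labelled libraries than in every BRAF library. Mmp7 (448 and 216 FPKM, against 130 to 243 FPKM in BRAF) overlapped BRAF. The 6 enteroendocrine markers summed to 51.7 and 45.8 FPKM in the libraries labelled CDX2KO_BRAF, below the other 6, with 59.8 to 148 FPKM in SMAD4KO_BRAF and 73.5 to 84.7 FPKM in BRAF. Chgb, Neurod1, Cck and Tph1 were each lower in both labelled libraries than in every BRAF library. Chga (8.72 and 6.70 FPKM, against 7.05 to 10.3 FPKM in BRAF) and Gip (25.0 and 22.4 FPKM, against 19.4 to 24.3 FPKM in BRAF) overlapped BRAF. The 6 goblet cell markers summed to 5865 and 4974 FPKM in the libraries labelled CDX2KO_BRAF, 2555 to 6125 FPKM in SMAD4KO_BRAF and 3906 to 4135 FPKM in BRAF. By this sum the labelled libraries lay above BRAF and within SMAD4KO_BRAF, but the goblet markers differed in direction against BRAF. Tff3 (2772 and 2544 FPKM, against 1060 to 1251 FPKM in BRAF) and Agr2 (1547 and 1137 FPKM, against 795 to 914 FPKM) were higher. Muc2 (151 and 121 FPKM, against 208 to 249 FPKM in BRAF) was lower, and Fcgbp, Clca3 and Zg16 overlapped BRAF. Library 1 of those labelled CDX2KO_BRAF, with the higher Clu, also had the higher tuft and gastric sums. The part of these cell types in the changes of Clu, Anxa1 and Anxa3 was not tested.

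The cytokine genes Il33 and Il1rn and the receptor gene Tnfrsf12a did not pass in this comparison. Il33 encodes an alarmin, a nuclear cytokine released by damaged cells. It had 15.4 and 19.7 FPKM in the libraries labelled CDX2KO_BRAF, 15.5, 13.6 and 5.57 FPKM in SMAD4KO_BRAF libraries 0 to 2, and 85.3, 11.5 and 21.6 FPKM in BRAF libraries 0 to 2. BRAF library 0 stood above every other library, and the rest of the BRAF values enclosed those of the labelled libraries. The change against BRAF was -0.66 (interval -2.48 to 1.17, limma adjusted p = 0.610), and 0.13 without BRAF library 0.

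Il1rn encodes the IL-1 receptor antagonist, a secreted blocker of IL-1. Its values were 35.04 and 10.9 FPKM in the libraries labelled CDX2KO_BRAF, 7.82, 23.7 and 2.88 FPKM in SMAD4KO_BRAF libraries 0 to 2, and 37.3, 3.39 and 7.78 FPKM in BRAF libraries 0 to 2. Each group held 1 library above 20 FPKM, and the groups overlapped. The change against BRAF was 0.86 (interval -1.66 to 3.38, limma adjusted p = 0.630).

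Tnfrsf12a encodes Fn14, the receptor of the cytokine TWEAK, and was the most abundant of the 9 genes in BRAF and SMAD4KO_BRAF. It had 97.1 and 66.2 FPKM in the libraries labelled CDX2KO_BRAF, 61.9, 60.4 and 30.1 FPKM in SMAD4KO_BRAF libraries 0 to 2, and 94.4, 26.8 and 49.5 FPKM in BRAF libraries 0 to 2. The labelled libraries lay above SMAD4KO_BRAF and overlapped BRAF. Its change against BRAF was 0.67 (interval -0.58 to 1.92, limma adjusted p = 0.449).

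Msln encodes mesothelin, a surface glycoprotein of mesothelial cells. It had 1.40 and 7.77 FPKM in the libraries labelled CDX2KO_BRAF, 0.827, 4.00 and 1.49 FPKM in SMAD4KO_BRAF libraries 0 to 2, and 17.0, 8.61 and 1.67 FPKM in BRAF libraries 0 to 2. The groups overlapped, and the change against BRAF was -0.75 (interval -2.84 to 1.34, limma adjusted p = 0.610). The 5 mesothelial markers found in the table summed to 2.12 and 4.36 FPKM in the libraries labelled CDX2KO_BRAF, 4.34 to 8.11 FPKM in SMAD4KO_BRAF and 7.38 to 24.3 FPKM in BRAF, with none at 0 throughout a group, though Wt1 and Upk3b were at 0 in library 0 of those labelled CDX2KO_BRAF. BRAF library 1, with the highest sum, was second of its group for Msln and BRAF library 0, at a sum of 8.09 FPKM, was first. Upk1b made up 6.97 FPKM of that 8.09 FPKM, and 2.04 and 1.94 FPKM of the sums in the libraries labelled CDX2KO_BRAF. Wt1, Upk3b, Lrrn4 and Gpm6a were each lowest of the BRAF group in library 0 and highest in library 1. The part of mesothelial cells in the Msln values was not tested.

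Spp1 encodes osteopontin, a secreted ligand of integrins and CD44 that macrophages also make. It had 0.0292 and 0.938 FPKM in the libraries labelled CDX2KO_BRAF, 0.0527, 4.42 and 5.79 FPKM in SMAD4KO_BRAF libraries 0 to 2, and 0.113, 14.0 and 1.52 FPKM in BRAF libraries 0 to 2. Library 0 was the lowest in each group. After scaling by relative depth, the 3 lowest values stood at 1 (SMAD4KO_BRAF), 1.01 (labelled CDX2KO_BRAF) and 3.03 (BRAF) times the lowest, so they lie at or near the smallest step that the table shows for this gene. The change against BRAF was -1.30 (interval -4.09 to 1.49, limma adjusted p = 0.506), the widest interval among the 9 genes.

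Spp1 had the same order of libraries within each group as the lymphocyte, mesenchymal and myeloid marker sums. The 9 T cell and lymphocyte markers, Gzma among them, summed to 8.96 and 49.7 FPKM in the libraries labelled CDX2KO_BRAF, to 39.5, 128 and 357 FPKM in SMAD4KO_BRAF libraries 0 to 2, and to 26.2, 688 and 127 FPKM in BRAF libraries 0 to 2. The 9 markers of mesenchyme and smooth muscle summed to 2.30 and 16.0 FPKM in the libraries labelled CDX2KO_BRAF, to 8.34, 34.8 and 44.2 FPKM in SMAD4KO_BRAF libraries 0 to 2, and to 6.64, 109 and 25.7 FPKM in BRAF libraries 0 to 2. The 9 myeloid markers found summed to 23.6 and 31.1 FPKM in the libraries labelled CDX2KO_BRAF, to 22.1, 43.9 and 56.1 FPKM in SMAD4KO_BRAF libraries 0 to 2, and to 16.6, 90.7 and 21.2 FPKM in BRAF libraries 0 to 2. Cd14 made up most of that sum in the labelled libraries and was higher there (20.8 and 19.6 FPKM) than in BRAF (9.21 to 12.6 FPKM). Itgam was lower (0.443 and 0.489 FPKM, against 1.96 to 6.75 FPKM in BRAF), and the remaining myeloid markers overlapped BRAF. Within each of the 3 groups the order of the libraries was the same for Spp1 and for these 3 sums, and the order for Tnfrsf12a was the reverse. No marker of these 3 lists was at 0 throughout a group. The 5 endothelial markers summed to at most 3.06 FPKM in any library. The part of these cells in the Spp1 values was not tested.

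**Figure D2:**
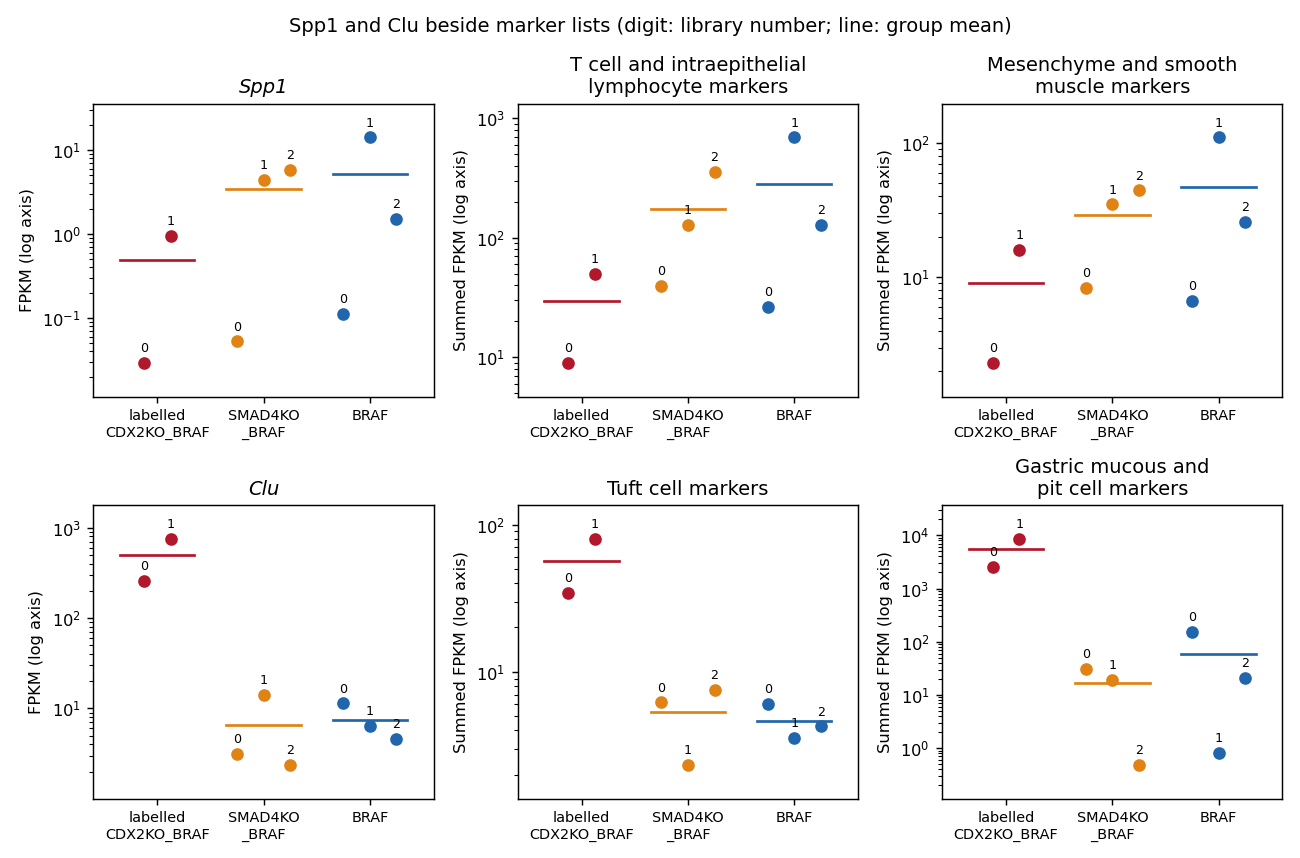
FPKM of Spp1 and Clu and summed FPKM of 4 marker lists (vertical log axes) by group, with 1 point per library, its number above it and a line at the group mean. Spp1 is lowest in library 0 of each group, as are the lymphocyte and mesenchymal sums, and Clu, tuft and gastric sums are higher in both libraries labelled CDX2KO_BRAF than in the other 6.

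Smad4 encodes the partner that receptor-activated SMADs need in TGF-beta and BMP signalling, and SMAD4KO_BRAF was set against BRAF to see the 9 genes at the lower Smad4 level given above. By limma 0 of the 9 genes passed, and 0 had an unadjusted p under 0.05, beside 9 of all genes called (0.0745%, with 0.0248% higher and 0.0497% lower) and 15.1% at that unadjusted p. The median change of the 9 genes was -0.41 and that of all genes -0.01, with 8 of 9 negative, and the groups overlapped for each of the 9. Of all genes 19.3% did not overlap, 8.99% higher and 10.4% lower. The largest differences were those of Msln at -1.45 (interval -3.32 to 0.42, limma adjusted p = 0.413) and Il33 at -1.32 (-2.95 to 0.31, adjusted p = 0.400). Without BRAF library 0 the values were -0.84 for Msln and -0.53 for Il33. For Clu the interval was -1.97 to 1.12 and for Anxa1 -1.57 to 2.103, so changes of up to about these sizes in either direction could not be told from none with these libraries.

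A direct comparison of the libraries labelled CDX2KO_BRAF with SMAD4KO_BRAF shows whether these groups differ from each other. Clu was 6.20 ± 0.73 higher (limma, adjusted p = 0.00353), and it was the 1 of the 9 genes that passed, beside 6.6% of all genes higher and 5.01% lower, 11.6% in all. At an unadjusted p under 0.05 there were 3 of the 9 and 28.9% of all genes. Over 20 other settings the change stayed between 5.43 and 6.97, and the call held in each (adjusted p up to 0.0408). Anxa1 was at 3.24 ± 0.87 (adjusted p = 0.0560, range 0.0243 to 0.221) and Anxa3 at 3.10 ± 0.91 (adjusted p = 0.0707, range 0.0228 to 0.2503). Both missed the threshold. Anxa1 passed without SMAD4KO_BRAF library 1 (0.0243) or BRAF library 0 (0.0456), and both passed with library weights (Anxa1 0.0283, Anxa3 0.0228) and with sex as a term (Anxa1 0.0489, Anxa3 0.0249). The labelled libraries lay above all SMAD4KO_BRAF libraries for 4 of the 9 genes, Clu, Anxa1, Anxa3 and Tnfrsf12a, beside 25.1% of all genes. They lay below for 0 of the 9, beside 22.2% of all genes, which makes 47.3% without overlap. The comparisons with BRAF share the BRAF libraries, and both with the libraries labelled CDX2KO_BRAF share those.

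**Figure D3:**
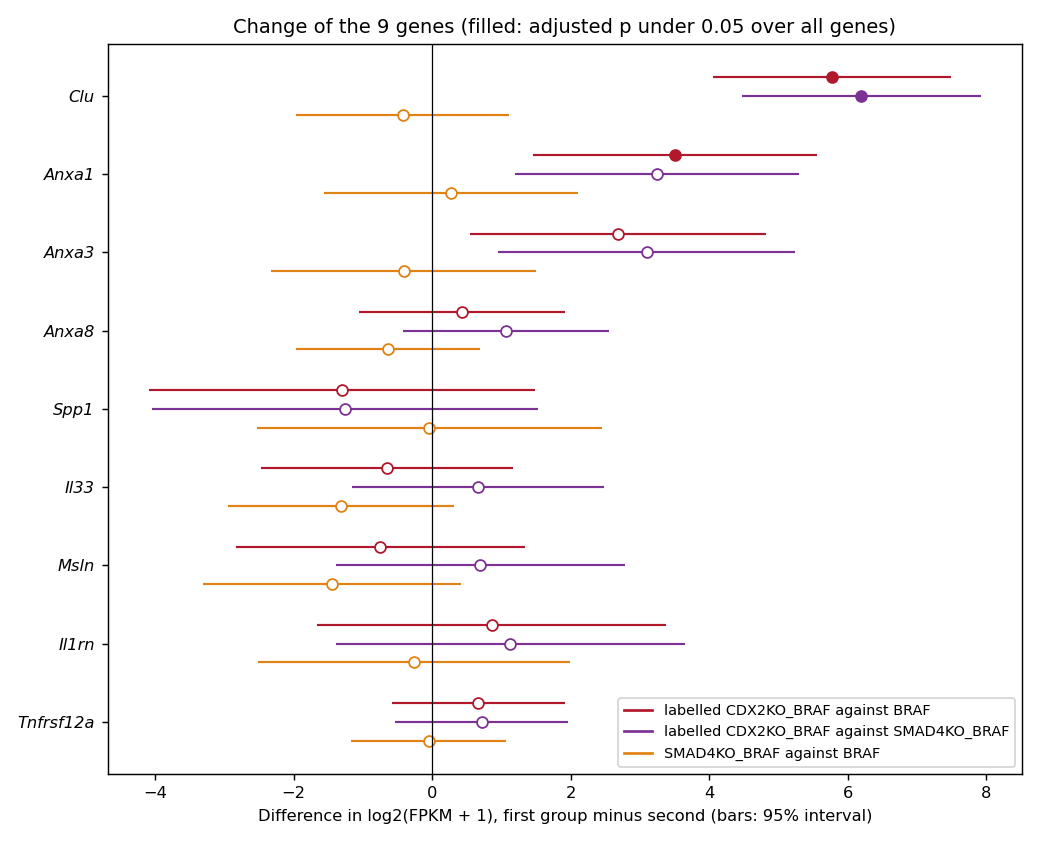
Difference in log2(FPKM + 1), first group minus second (horizontal axis), for each of the 9 genes and 3 comparisons, with 95% intervals and filled points where the adjusted p over all genes was under 0.05. The filled points are Clu at 5.77 and 6.20 and Anxa1 at 3.51.

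The 9 genes varied strongly between libraries of the same group. The SD of log2(FPKM + 1) within BRAF was larger for each of the 9 than for 90.2% to 98.6% of all tested genes, with 86.8% to 98.5% within SMAD4KO_BRAF and 73.7% to 99.1% within the libraries labelled CDX2KO_BRAF. BRAF library 0 was the highest of its group for 8 of the 9 genes and the lowest for Spp1. SMAD4KO_BRAF library 2 was the lowest of its group for 7 of the 9 genes, and SMAD4KO_BRAF library 1 the highest for 5. Of the libraries labelled CDX2KO_BRAF, library 1 was higher for 7 genes and library 0 for Il1rn and Tnfrsf12a. After subtracting each gene's BRAF mean on the log2 scale, the median over the 9 genes was 0.94 and 0.39 in the libraries labelled CDX2KO_BRAF. It was -0.62, 0.36 and -1.24 for the 3 SMAD4KO_BRAF libraries in order and 1.22, -0.54 and -0.47 for the 3 BRAF libraries. BRAF library 0 thus stood highest of all 8 by this measure. That library also had the lowest lymphocyte and mesenchymal sums of its group and the highest enterocyte sum of all 8, at 27916 FPKM, and by Y-linked genes and Xist it was male, like SMAD4KO_BRAF library 0, while the remaining 6 were female. The part of cell make-up and sex in this spread was not tested.

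**Figure D4:**
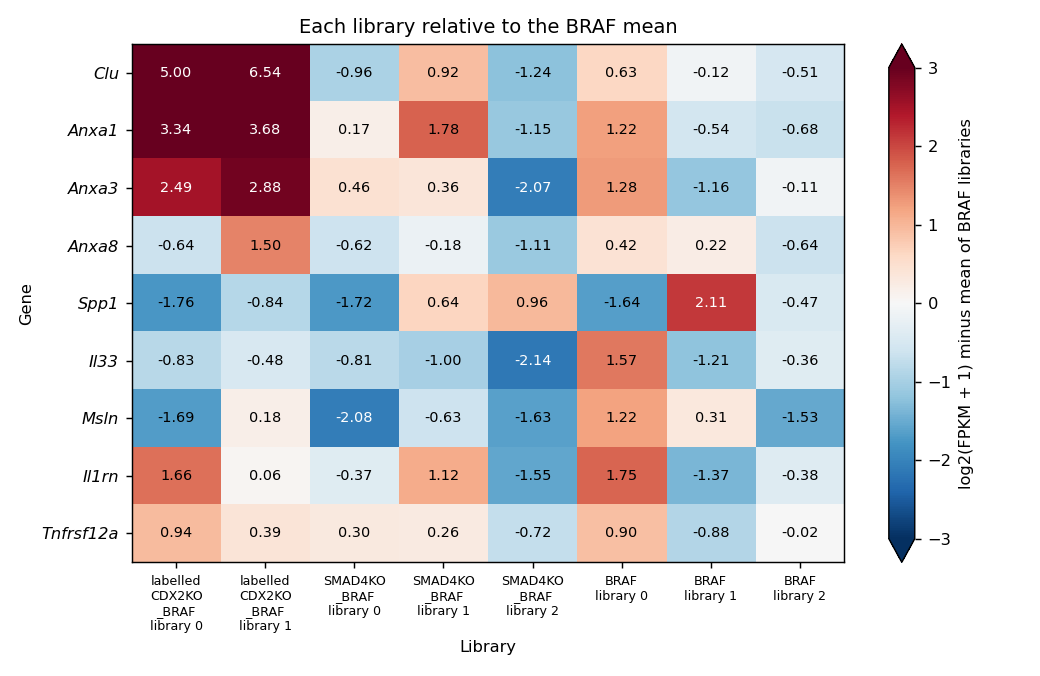
Log2(FPKM + 1) minus the mean of the BRAF libraries, as colour and number, for the 9 genes (lines) and 8 libraries (columns), where the colour scale stops at 3 either way. Clu reaches 5.004 and 6.54 in the libraries labelled CDX2KO_BRAF, BRAF library 0 is positive for each gene but Spp1, and SMAD4KO_BRAF library 2 is negative for each gene but Spp1.

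The genes most like each of the 9 were read by Pearson's r of log2(FPKM + 1) across the 8 libraries, among other tested genes with a mean FPKM of at least 5. These values describe 8 libraries in 3 groups and carry no test. Clu was most like Arhgap1 (r = 0.990), Asap2 and Ibtk. Anxa1 was most like Fhl3 (0.990), C1galt1 and Gprc5b, and Anxa3 most like the tight junction gene Cldn2 (0.986), Tusc3 and Fdx1l. Spp1 was most like the fibronectin gene Fn1 (0.997), Srgn, which encodes a proteoglycan of blood cell granules, and Cd52, a lymphocyte surface gene. Il33 was most like Atrnl1 (0.990), Xiap and Dcaf12. Il1rn and Tnfrsf12a shared Rdh10 among their 3 genes (0.958 and 0.957), beside Ints2 and B3gnt2 for Il1rn and Pfkfb3 and Cacfd1 for Tnfrsf12a. The highest values were 0.945 for Anxa8, with Ywhaz, Zmiz1 and Fkbp15, and 0.950 for Msln, with Gnai2, Gclm and Mir6942.

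Further genes of the fetal and regenerative programme were read from a list of 24, of which 20 were tested. In the libraries labelled CDX2KO_BRAF against BRAF, 2 rose and 1 fell, beside 6.89% and 7.21% of all genes, and 9 of the 20 had an unadjusted p under 0.05, beside 28.8% of all genes. The list's median was 0.06, beside 0.02 for all genes. Ly6e, a surface protein gene of the Ly6 family, had 502 and 500.5 FPKM in the libraries labelled CDX2KO_BRAF and 56.8, 50.6 and 53.7 FPKM in BRAF libraries 0 to 2 (3.20 ± 0.18, limma adjusted p = 0.000215). Ly6d, of the same family, had 906 and 1083 FPKM in the libraries labelled CDX2KO_BRAF and 106, 12.7 and 17.4 FPKM in BRAF libraries 0 to 2 (5.05 ± 0.90, adjusted p = 0.0126). The Ly6 genes have similar sequences, and how reads shared between them were assigned is not given, so their values are uncertain. Ereg, which encodes the EGF receptor ligand epiregulin, fell to 0.0687 and 0.106 FPKM in the libraries labelled CDX2KO_BRAF, against 8.52, 1.69 and 3.61 FPKM in BRAF libraries 0 to 2 (-2.17 ± 0.50, adjusted p = 0.0306). Ly6a, the Sca-1 gene that marks regenerating mouse colon, had 432.5 and 433 FPKM in the libraries labelled CDX2KO_BRAF and 160, 19.5 and 53.4 FPKM in BRAF libraries 0 to 2, and missed the threshold (2.94 ± 0.81, adjusted p = 0.0532).

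Against SMAD4KO_BRAF, 4 of the 20 genes were higher in the libraries labelled CDX2KO_BRAF and 0 lower, beside 6.6% and 5.01% of all genes, and 10 had an unadjusted p under 0.05, beside 28.9% of all genes. The list's median was 0.89, beside 0.02 for all genes. The 4 were Ly6e (2.94, limma adjusted p = 0.000277), Ly6d (6.32, 0.00697), Ly6a (3.50, 0.0347) and the pantetheinase gene Vnn1 (1.25, 0.0475). In SMAD4KO_BRAF against BRAF 0 of the 20 passed in limma and 2 had an unadjusted p under 0.05, Vnn1 (-1.23, adjusted p = 0.183) and the adhesion gene Cxadr (-0.56, 0.290), with a median of -0.36. The shares of all genes in that comparison were 0.0745% called and 15.1% at that unadjusted p. The YAP target gene Cyr61 was at -0.23 in the libraries labelled CDX2KO_BRAF against BRAF (adjusted p = 0.389) and at -0.02 in SMAD4KO_BRAF against BRAF (0.965). Cyr61 had 0.630 and 0.623 FPKM in the libraries labelled CDX2KO_BRAF and 0.756 to 1.02 FPKM in BRAF. At such low levels the scale understates changes. Ctgf, a further YAP target gene of the list, did not pass the filter. It went the other way, with 0.677 and 0.425 FPKM in the libraries labelled CDX2KO_BRAF and 0.0616 to 0.417 FPKM in BRAF. YAP activity was not tested.

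**Figure D5:**
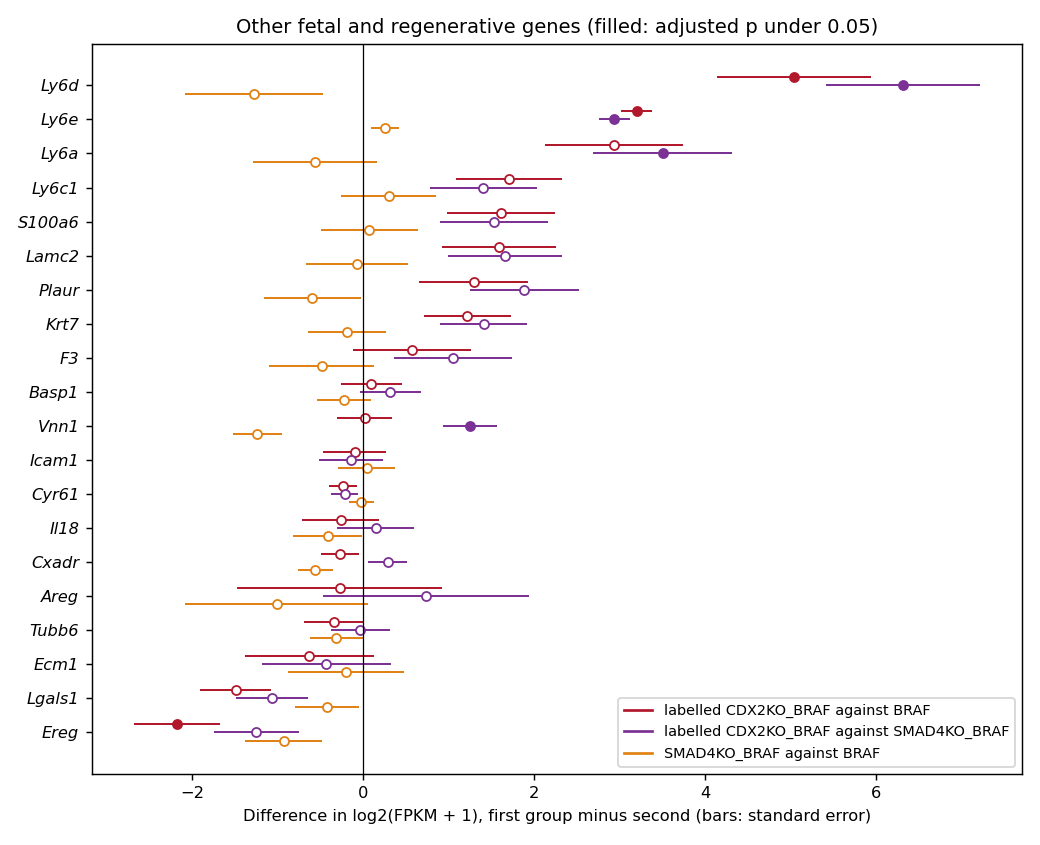
Difference in log2(FPKM + 1), first group minus second (horizontal axis), with standard errors, for the 20 tested genes of the further fetal and regenerative list in 3 comparisons, filled where the adjusted p over all genes was under 0.05. Ly6d (5.05 against BRAF, 6.32 against SMAD4KO_BRAF), Ly6e (3.20 and 2.94) and Ly6a (2.94 and 3.50) are the 3 genes furthest to the right in both comparisons with the libraries labelled CDX2KO_BRAF, and Ereg is at -2.17 against BRAF.

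Other annexins and their S100 partners were read from a list of 11. All 11 were tested, and 0 rose and 1 fell in limma in the libraries labelled CDX2KO_BRAF against BRAF, where 14.1% of all genes were called. At an unadjusted p under 0.05 there were 3 of the 11, beside 28.8% of all genes, so both counts are near those of all genes. The one that fell was Anxa13, an annexin gene of intestinal epithelium, with 194 and 116 FPKM in the libraries labelled CDX2KO_BRAF, 727, 506 and 457 FPKM in SMAD4KO_BRAF libraries 0 to 2, and 718, 587 and 566 FPKM in BRAF libraries 0 to 2 (-2.04 ± 0.29 against BRAF, adjusted p = 0.00545, and -1.87 against SMAD4KO_BRAF, adjusted p = 0.00969). The list's median was 0.15 against BRAF. Against SMAD4KO_BRAF it was 0.38, with 0 higher and 1 lower, beside 6.6% and 5.01% of all genes. At an unadjusted p under 0.05 there were 5 of the 11 in that comparison, beside 28.9% of all genes. In SMAD4KO_BRAF against BRAF the median was -0.27, with 0 called and 0 at an unadjusted p under 0.05. Of all genes, 0.0745% were called there and 15.1% had such an unadjusted p.

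Il33 and Il1rn act within the IL-1 family, of which 10 of 20 listed ligands, receptors and adaptors were tested. In the libraries labelled CDX2KO_BRAF against BRAF 3 rose and 0 fell, beside 6.89% and 7.21% of all genes, and 4 of the 10 had an unadjusted p under 0.05, beside 28.8% of all genes. The median was 0.17. Il1a, which encodes an IL-1 ligand that the Il1rn product blocks, had 4.33 and 4.28 FPKM in the libraries labelled CDX2KO_BRAF, 0.359, 0.335 and 0.201 FPKM in SMAD4KO_BRAF libraries 0 to 2, and 1.02, 0.308 and 0.243 FPKM in BRAF libraries 0 to 2 (1.84 ± 0.24 against BRAF, limma adjusted p = 0.00406). Outside the labelled libraries Il1a reached 1 FPKM in BRAF library 0 alone, so it passed the filter only through the group where it is high. The counts of this list in both comparisons with the labelled libraries include it. Il18bp, which encodes a secreted blocker of IL-18, had 12.8 and 16.5 FPKM in the libraries labelled CDX2KO_BRAF and 6.61, 6.22 and 5.15 FPKM in BRAF libraries 0 to 2 (1.16 ± 0.19, adjusted p = 0.00915). The receptor kinase gene Irak1 rose by 0.56 (adjusted p = 0.0365). Against SMAD4KO_BRAF, 3 were higher and 0 lower, Il1a (2.03, adjusted p = 0.00348), Il18bp (1.48, 0.00485) and the adaptor gene Myd88 (0.42, 0.0488), with a median of 0.35. Of all genes 6.6% were higher there, and 6 of the 10 had an unadjusted p under 0.05, beside 28.9% of all genes. The IL-33 receptor gene Il1rl1 had at most 0.0653 FPKM in any library and was not tested. In SMAD4KO_BRAF against BRAF 0 of the 10 passed in limma and 1 had an unadjusted p under 0.05, Irak2 (-0.47, adjusted p = 0.215). The shares of all genes in that comparison were 0.0745% called and 15.1% at that unadjusted p.

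Downstream of Tnfrsf12a, TWEAK signals through TRAF proteins to the non-canonical NF-kB pathway. Of 12 genes tested in this list, 0 passed in limma in any of the 3 comparisons, with 1, 3 and 1 at an unadjusted p under 0.05 in the libraries labelled CDX2KO_BRAF against BRAF, the same libraries against SMAD4KO_BRAF, and SMAD4KO_BRAF against BRAF. The shares of all genes at that unadjusted p were 28.8%, 28.9% and 15.1% in the same order, so the counts of the list are not above them. The smallest adjusted p was that of Relb, an NF-kB subunit gene, in the first of these (-0.61 ± 0.17, adjusted p = 0.0556). Next was Birc2, which encodes a ubiquitin ligase of the pathway, in the second (-0.36 ± 0.13, adjusted p = 0.112). The list's medians were 0.06, -0.03 and 0.06 in the same order. Tnfsf12, which encodes TWEAK itself, had 1.05 and 0.736 FPKM in the libraries labelled CDX2KO_BRAF, 1.24 to 1.81 FPKM in SMAD4KO_BRAF and 0.419 to 1.91 FPKM in BRAF.

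Among receptors and binding partners of the products of Anxa1, Spp1, Clu and Msln, 7 of 15 listed genes were tested. Vldlr, which encodes a lipoprotein receptor able to bind clusterin, had 3.09 and 4.50 FPKM in the libraries labelled CDX2KO_BRAF, 2.05, 1.82 and 1.15 FPKM in SMAD4KO_BRAF libraries 0 to 2, and 0.953, 0.567 and 0.922 FPKM in BRAF libraries 0 to 2. It was the 1 gene of the list that rose against BRAF (1.39 ± 0.23, limma adjusted p = 0.00869), with 0 lower and a list median of 0.42. Of all genes 14.1% were called there, about the same share, and 3 of the 7 had an unadjusted p under 0.05, beside 28.8% of all genes. Against SMAD4KO_BRAF the 1 gene called was the integrin subunit gene Itgb6, at 9.65 and 5.95 FPKM in the libraries labelled CDX2KO_BRAF and 2.096, 2.34 and 1.75 FPKM in SMAD4KO_BRAF libraries 0 to 2 (1.496 ± 0.30, adjusted p = 0.0218), beside 11.6% of all genes called, and 4 of the 7 had an unadjusted p under 0.05, beside 28.9% of all genes. In SMAD4KO_BRAF against BRAF 0 of the 7 passed in limma and 2 had an unadjusted p under 0.05, Vldlr (0.55, adjusted p = 0.291) and Itgb6 (-0.71, 0.300). The shares of all genes in that comparison were 0.0745% called and 15.1% at that unadjusted p.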

How the data were processed

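Jejunal crypt RNA of 8 mouse libraries was read from 1 table of FPKM values deposited by the authors. Per the labels' protocols, libraries were made with a TruSeq v2 kit and read as 50 bp single ends. The submitters' processing notes name the build mm9, the aligner TopHat2 2.1.0 and, from one package, Cuffdiff 2.2.1 and Cuffnorm 2.2.1, but the program that made the table is not given in the sources used here. Columns were matched to groups only, since they are numbered from 0 and the titles from 1. The other 3 columns match no sample in the labels and were not used here.

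A gene was tested where 2 or more libraries reached 1 FPKM, which kept 12084 of 23951. All 3 groups were fitted in 1 model of log2(FPKM + 1) by limma-trend (limma 3.58.1 under R 4.3.3), and two-sided p-values were adjusted by Benjamini-Hochberg in each of 3 comparisons. The fit was tested on simulated data. The genes and lists were chosen with earlier results of these data known. All 9 genes are named. From each further list the genes called in any comparison are named, at most the 4 with the smallest adjusted p, and in a list with none called the 2 with the smallest adjusted p. Vnn1, Cxadr, Cyr61, Ctgf, Irak2, Il1rl1 and Tnfsf12 are named beyond that rule, after their values were seen. So are single genes of the stem cell, enterocyte, Paneth, enteroendocrine, goblet, myeloid, mesothelial and gastric lists. Il18, Anxa10 and Muc16 each stand in 2 lists. Marker lists are given as summed FPKM, and genes alike are the 3 with the highest r. The fit was repeated without any filter and with a threshold of 5 FPKM, with 0.1 added in place of 1, after quantile normalization or median-ratio scaling, on the 2 groups at hand alone, with robust moderation or without the trend, with weights per library, with a replicate block, and without each library. Sex as a term and the female libraries alone were chosen after seeing the data. Figures used Python 3.11.15 with matplotlib 3.10.9.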

Additional observations from a re-analysis of the deposited data

How the results depend on the processing

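Of 537 values of the 9 genes under 20 alternatives per comparison, 499 kept their direction and their side of the threshold. Anxa8 could not be fitted with a threshold of 5 FPKM, which it does not reach in 2 libraries. The call of Clu held in each alternative of both comparisons with the libraries labelled CDX2KO_BRAF, and 0 of the 9 genes passed in SMAD4KO_BRAF against BRAF under each. In the libraries labelled CDX2KO_BRAF against BRAF, where 2 of the 9 passed, 1 passed with no filter, a robust fit or a replicate block, and 1 to 3 did with 1 library left out. Against SMAD4KO_BRAF, where 1 passed, 3 passed with library weights and with sex as a term, and 1 to 2 did with 1 library left out. In SMAD4KO_BRAF against BRAF the sign turned for Tnfrsf12a with quantile normalization (0.10) and in female libraries alone (0.22), for Spp1 with library weights (0.91), and for Clu (0.16) and Il1rn (0.66) in female libraries alone. Leaving out 1 library gave -0.49 to 0.97 for Anxa1, -0.995 to 0.41 for Anxa3, -0.86 to 1.02 for Spp1, -0.96 to 0.61 for Il1rn and -0.49 to 0.40 for Tnfrsf12a. In the libraries labelled CDX2KO_BRAF against BRAF the sign turned for Msln with library weights (0.16) and for Il33 in female libraries alone (0.13), and leaving out 1 library gave -0.64 to 1.497 for Anxa8, -1.26 to 0.13 for Il33 and -1.69 to 0.18 for Msln. Against SMAD4KO_BRAF it gave -0.24 to 1.63 for Msln. None of the values that turned was called, and the cause was not tested. Genes called over the whole table ranged from 5 to 1069 around 9 in SMAD4KO_BRAF against BRAF, from 409 to 2602 around 1704 in the libraries labelled CDX2KO_BRAF against BRAF, and from 234 to 2447 around 1402 against SMAD4KO_BRAF, with the highest count under library weights in each. Where leaving out a library left 1 labelled CDX2KO_BRAF, that library was assumed to vary like the other groups. The replicate block used the column number, under which 10, 1181 and 805 genes were called in the 3 comparisons. The labels do not say whether column numbers pair the libraries, and the values here cannot settle it. Library 0 was male in BRAF and in SMAD4KO_BRAF and female among those labelled CDX2KO_BRAF. The deviations of same-numbered BRAF and SMAD4KO_BRAF libraries correlated at 0.24, -0.05 and 0.0035 across genes, and BRAF library 1 correlated best with SMAD4KO_BRAF library 2 (0.31). Depth in reads is unknown, so the spread between libraries is the only error given, and low values such as those of Spp1 in library 0 of each group are the least precise.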

Other observations

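Beside the 9 genes, BRAF library 0 also stood apart for other genes of the lists, chosen here after their values were seen. Ly6a had 160 FPKM in BRAF library 0, against 19.5 and 53.4 FPKM in BRAF libraries 1 and 2. Ly6d had 106 FPKM in BRAF library 0, against 12.7 and 17.4 FPKM in BRAF libraries 1 and 2. The gastric annexin gene Anxa10 had 170 and 358 FPKM in the libraries labelled CDX2KO_BRAF, 143 FPKM in BRAF library 0, and 0.362 and 16.6 FPKM in BRAF libraries 1 and 2. Ereg had 8.52 FPKM in BRAF library 0, against 1.69 and 3.61 FPKM in BRAF libraries 1 and 2, and it is lower in the libraries labelled CDX2KO_BRAF, where Ly6a, Ly6d and Anxa10 are high. Of the other gastric markers, Gkn1, Gkn2, Cldn18 and Muc6 were also highest of the BRAF group in library 0 and Tff2 was not, and all of these were lower there than in the libraries labelled CDX2KO_BRAF. Gkn1 had 391 and 1955 FPKM in the libraries labelled CDX2KO_BRAF, 6.34 FPKM in BRAF library 0, and 0 and 1.17 FPKM in BRAF libraries 1 and 2. Gkn2 had 661 and 3566 FPKM in the libraries labelled CDX2KO_BRAF, 2.80 FPKM in BRAF library 0, and 0 and 1.77 FPKM in BRAF libraries 1 and 2. Cldn18 had 86.7 and 248 FPKM in the libraries labelled CDX2KO_BRAF, 0.731 FPKM in BRAF library 0, and 0.0259 and 0.151 FPKM in BRAF libraries 1 and 2. Tff2 had 1256 and 2318 FPKM in the libraries labelled CDX2KO_BRAF, 0.346 FPKM in BRAF library 0, and 0.326 and 1.37 FPKM in BRAF libraries 1 and 2. Muc6 had 0.284 and 1.77 FPKM in the libraries labelled CDX2KO_BRAF and 0.103 FPKM in BRAF library 0, against 0.0958 and 0.0393 FPKM in BRAF libraries 1 and 2. Muc5ac and Tff1 were at 0 in the BRAF libraries.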
